A study of Homo sapiens with 11 samples.

Results

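The integrated stress response and the unfolded protein response were described here through 35 genes measured by 73 probe sets, out of 19775 named genes and 54613 probe sets tested on the array. Every probe set annotated to exactly 1 of the 35 symbols was taken, whatever its values. The genes fall into an ATF4 branch of 22 genes (40 probe sets) and an endoplasmic reticulum (ER) side of 13 genes (33 probe sets), of which 8 genes (21 probe sets) are ER chaperones and folding enzymes. The measurements are 11 Affymetrix HG-U133 Plus 2 arrays, a 3' expression array, of total RNA from T47D, an established human breast cancer line. Before treatment the cultures spent 4 h in medium whose serum (10%) was stripped of steroids by charcoal, and each treatment then lasted 3 h. There were 2 arrays of untreated control (medium change alone) and 2 of E2-BSA, an estradiol linked to the carrier protein bovine serum albumin. The other 7 groups had 1 array each: 1 µM estradiol, 0.1% ethanol (named in the labels as the vehicle for estradiol), 1 µM BSA, 10 µM ICI, 10 µM G15, and E2-BSA combined with either ICI or G15. E2-BSA was used at 1 µM throughout. ICI and G15 are called antagonists in the labels, and G15 is known as an antagonist of the G protein-coupled estrogen receptor. The labels do not say whether arrays came from separate cultures, so p-values measure only the spread between these arrays, which may be technical. All samples come from 1 cell line.

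In the integrated stress response, kinases that sense amino acid shortage, misfolded protein in the ER, double-stranded RNA or heme deficiency phosphorylate the translation factor eIF2. General protein synthesis then slows while the transcription factor ATF4 is translated more, and ATF4 switches on genes of amino acid synthesis and uptake, further transcription factors such as ATF3 and DDIT3, and feedback genes that restore translation. The unfolded protein response shares the eIF2 kinase PERK with it and adds the sensors ERN1 (IRE1) and ATF6, which act through spliced XBP1 and cleaved ATF6 to raise ER chaperones and the machinery that degrades misfolded ER proteins. In breast cancer cells estrogen is known to engage an anticipatory form of the unfolded protein response.

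The deposited values are log2 values centred probe set by probe set, so that they show differences between arrays but not how abundant a transcript is. The arrays fell into a smaller set of 3 (control 1, E2-BSA 1 and estradiol) and a larger set of 8 (control 2, E2-BSA 2 and the other 6 groups), and the component that separates them held 71% of the variance. The labels name no such set. It was therefore kept as a term in every fit, and values per array are given below as differences from the control array of the same set. Of 20 genes fixed as markers of luminal T47D cells and of other cell types, 19 are on the array, but centred values give no level by which the cell identity could be checked. Fits used limma with Benjamini-Hochberg adjustment across the 54613 probe sets tested, and a call is an adjusted p under 0.05. Errors are standard errors (SE) of that fit. A single-array group is assumed to vary like control and E2-BSA, whose arrays leave 1 residual degree of freedom, so the errors lean on the prior of 11.3 degrees of freedom. A gene with several probe sets (22 of the 35 genes) is represented by the one with the largest spread within the sets.

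The ethanol array stood apart in this module. Of the 73 probe sets, 19 were higher with ethanol than in control (limma, adjusted p under 0.05) and 0 were lower, against 0.287% of all probe sets called in either direction and 0.227% called higher. These 19 probe sets belong to 14 genes, of which 13 lie in the ATF4 branch of 22 genes and 1, HERPUD1, lies on the ER side of 13 genes. They made up 12.1% of the 157 probe sets called on the whole array. The median log2 change was 1.0 over the ATF4 branch, 0.13 over the ER chaperones and 0.003 over all 19775 genes. In the ATF4 branch 21 of 22 genes had a change above 0 and 11 had a change of 1 or more, a size reached by 0.303% of all genes. Representative probe sets were chosen by a spread that includes the ethanol array. Gene values therefore lean towards probe sets that moved on it, in the module and among all genes. The calls depended on the array set as a term: without it 0 of 73 probe sets were called, and after quantile normalization 2 were. The ethanol group is 1 array, so a difference between cultures and an effect of ethanol cannot be told apart. RNA was taken from whole cultures, so more RNA per cell and more cells with that RNA cannot be told apart either.

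**Figure D1:**
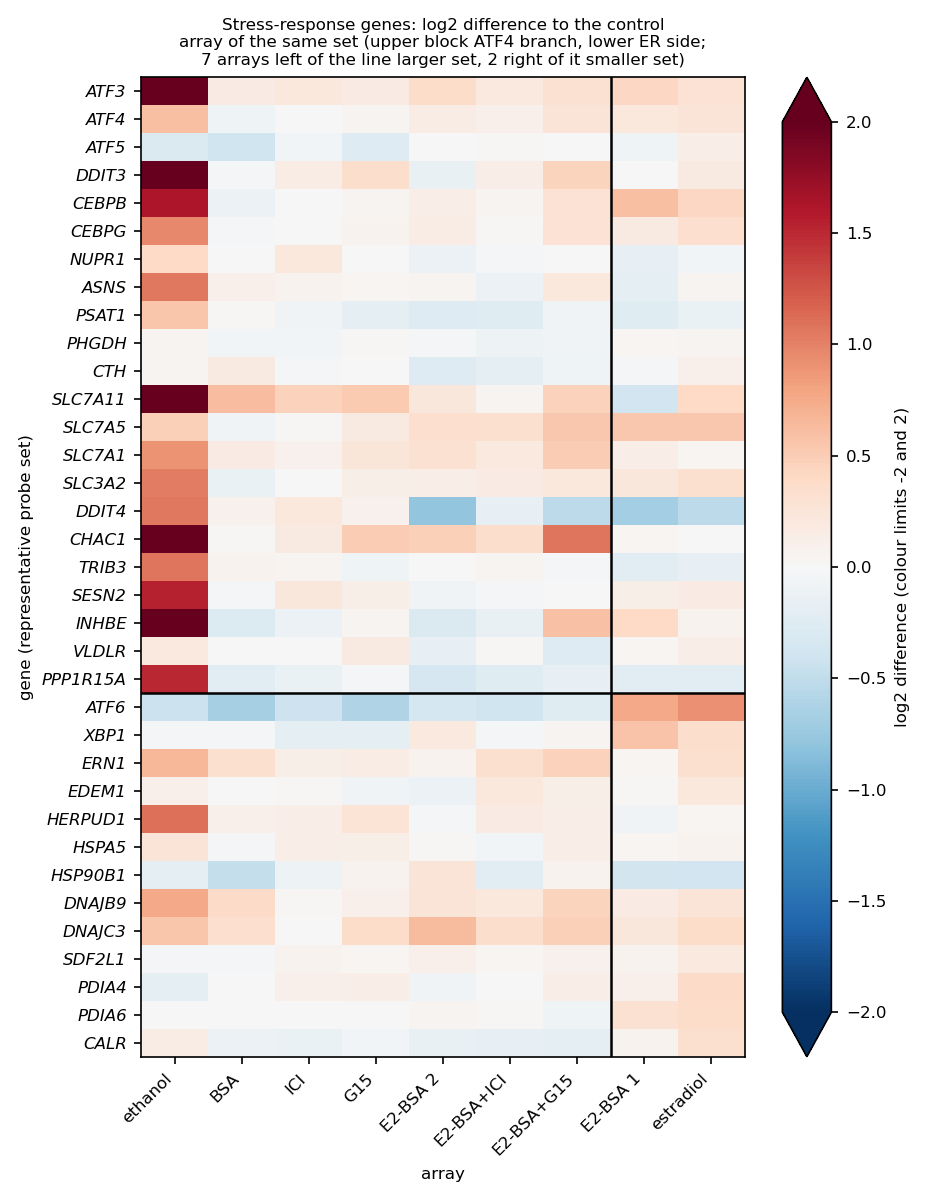
Log2 difference of each of the 35 genes (rows, grouped by role) from the control array of the same array set, for the 9 arrays outside control (columns), with colour running from lower to higher and clipped at 2 log2 units in either direction. The ethanol column is high across most of the ATF4 branch, with CHAC1 at 3.84 and ATF3 at 3.39, while the chaperone rows show no such column.

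Among the transcription factors of the branch, 4 of 7 genes rose with ethanol, with a median change of 0.97. ATF3, a stress-induced repressor and activator of the ATF/CREB family, lay 3.39 log2 units above its set's control on the ethanol array. On the other arrays it lay between 0.16 (BSA) and 0.42 (E2-BSA 1), with 0.36 for E2-BSA 2, 0.31 for E2-BSA with G15, 0.29 for estradiol, 0.21 for ICI, 0.19 for E2-BSA with ICI and 0.17 for G15. The ethanol array was thus the only high one, and no other array came near it. The fitted change was 3.41 ± 0.16 (SE), a 10.6-fold difference with an adjusted p of 8.80783e-07 in limma, and it ranked 3 among 54613 probe sets. Of the 2 other ATF3 probe sets, 1 moved the same way by less, with a change of 0.70 that did not pass. The other had a change of -0.00.

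DDIT3 encodes CHOP, a transcription factor that promotes cell death under lasting ER stress. It lay 2.41 log2 units above control on the ethanol array, against 0.44 for E2-BSA with G15, 0.35 for G15, 0.18 for estradiol, 0.16 for ICI, 0.14 for E2-BSA with ICI, 0.00 for E2-BSA 1, -0.04 for BSA and -0.15 for E2-BSA 2. The fitted change of 2.45 ± 0.16 (SE) corresponds to 5.46-fold (limma adjusted p = 9.55808e-06). CEBPB, a partner of ATF4 in dimers, lay at 1.62 with ethanol, at 0.60 and 0.41 with E2-BSA 1 and estradiol in the smaller set, and between -0.12 (BSA) and 0.28 (E2-BSA with G15) on the remaining arrays. Its fitted change was 1.74 ± 0.18 (SE; limma adjusted p = 0.000602624). CEBPG, another dimer partner, lay at 0.97 with ethanol, above every other array (-0.02 for BSA to 0.34 for estradiol), and both of its probe sets had a fitted change of 0.97 (limma adjusted p = 0.021837 for the representative one).

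The transcript of ATF4 itself lay 0.61 log2 units above control on the ethanol array. The other arrays gave 0.26 (estradiol), 0.25 (E2-BSA with G15), 0.22 and 0.15 (E2-BSA 1 and 2), 0.10 (E2-BSA with ICI), 0.05 (G15), 0.00 (ICI) and -0.09 (BSA). Its fitted change of 0.62 ± 0.16 (SE) did not pass (limma adjusted p = 0.219114). In an added fit that set the ethanol array against all 10 others with terms for the other agents, the difference was 0.65 and passed (limma adjusted p = 0.0392878). The deposited values hold transcript only, and ATF4 is known to be controlled chiefly at translation. ATF5, a relative of ATF4 that the same pathway translates, had a change of -0.31 and NUPR1, a small stress-induced chromatin protein, one of 0.38, and neither passed.

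Of the 4 genes of amino acid synthesis, ASNS alone rose. ASNS makes asparagine and is a standard readout of ATF4. It lay 1.06 log2 units above control with ethanol and between -0.19 (E2-BSA 1) and 0.21 (E2-BSA with G15) on the other arrays (fitted change 0.99 ± 0.16 SE, 1.99-fold, limma adjusted p = 0.0246757). PSAT1 and PHGDH, enzymes of serine synthesis, had fitted changes of 0.56 and 0.07, and CTH, which makes cysteine from cystathionine, one of 0.11. None of these 3 genes passed.

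Of the 4 amino acid transporter genes, 2 rose and all 4 had fitted changes of 0.53 or more on their representative probe sets. For SLC7A1 the other probe sets gave 0.71, 0.11, 0.01 and -0.06 in the added fit against all other arrays. SLC7A11, the cystine importer, lay at 2.31 with ethanol, at 0.61 with BSA, 0.53 with G15, 0.46 with ICI, 0.45 with E2-BSA and G15, 0.40 with estradiol, 0.22 and -0.39 with E2-BSA 2 and 1, and 0.05 with E2-BSA and ICI. Its fitted change was 2.16 ± 0.19 (SE; 4.46-fold, limma adjusted p = 0.000202567). A second probe set of SLC7A11 rose by 1.72 and the third had a change of 0.18 that did not pass. SLC3A2, the heavy chain with which SLC7A11 and SLC7A5 form exchangers, lay at 1.02 with ethanol and between -0.13 (BSA) and 0.32 (estradiol) elsewhere (fitted change 1.05 ± 0.16 SE, limma adjusted p = 0.0140634). SLC7A1, a carrier of cationic amino acids, and SLC7A5, the large neutral amino acid carrier, had changes of 0.85 (limma adjusted p = 0.0583517) and 0.53, which did not pass.

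Feedback genes and stress effectors moved most, with 6 of 7 genes higher and a median change of 1.54. CHAC1, an enzyme that degrades glutathione and is induced through ATF4, lay 3.84 log2 units above control with ethanol. It lay at 1.07 with E2-BSA and G15, 0.51 with G15, 0.48 with E2-BSA 2, 0.36 with E2-BSA and ICI, 0.19 with ICI, 0.04 with E2-BSA 1, 0.03 with BSA and -0.01 with estradiol. Ethanol and, far below it, E2-BSA with G15 were therefore the high arrays. The fitted change of 3.74 ± 0.18 (SE) is 13.3-fold (limma adjusted p = 8.80783e-07) and ranked 2 among all 54613 probe sets. INHBE, a subunit of the hormone activin E, lay at 3.02 with ethanol, at 0.58 with E2-BSA and G15, at 0.41 with E2-BSA 1, and between -0.29 (E2-BSA 2) and 0.06 on the other 6 arrays. Its fitted change was 3.20 ± 0.20 (SE; 9.17-fold, limma adjusted p = 9.17388e-06).

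SESN2, a sestrin that restrains mTORC1 when leucine is scarce, lay at 1.54 with ethanol and between -0.07 (E2-BSA 2) and 0.23 (ICI) on the other arrays. Its 2 probe sets rose by 1.59 and 1.47 (limma adjusted p = 0.000539958 for the first). PPP1R15A encodes GADD34, the phosphatase subunit that reverses eIF2 phosphorylation. On its representative probe set it lay at 1.51 with ethanol but below control on all 8 other arrays, from -0.33 (E2-BSA 2) to -0.02 (G15). The second PPP1R15A probe set had fitted changes of 0.18 with ICI and 0.05 with G15. It gave -0.16 with estradiol, -0.20 with E2-BSA and ICI and -0.17 with E2-BSA and G15. Its 2 probe sets rose by 1.54 and 1.29 with ethanol (limma adjusted p = 0.00059164 for the first). TRIB3, a pseudokinase that inhibits ATF4 and AKT, lay at 1.06 with ethanol and between -0.21 (E2-BSA 1) and 0.07 (BSA) elsewhere (fitted change 1.01 ± 0.16 SE, limma adjusted p = 0.021356). VLDLR, a lipoprotein receptor, was the gene of this list that did not pass, with a change of 0.24.

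**Figure D2:**
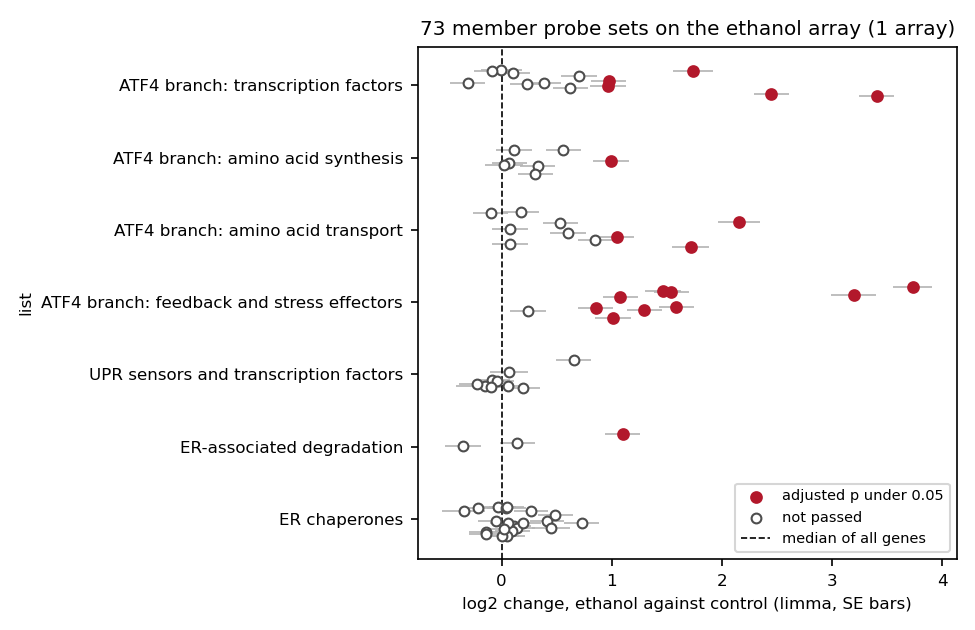
Fitted log2 change of the ethanol array against control for each of the 73 probe sets (points; bars are SE), grouped by role, with the 19 probe sets at an adjusted p under 0.05 in red. Called points lie at 0.85 or more in the ATF4 lists, and 1 called point, HERPUD1, lies on the ER side.

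On the ER side the sensors and their transcription factors gave 0 of 3 genes past the test with ethanol. XBP1, whose messenger is spliced by ERN1, had a change of 0.06 ± 0.17 (SE; limma adjusted p = 0.999603), and its value was -0.03 against its set's control. These probe sets do not separate spliced from unspliced XBP1. Of the ERN1 probe sets, the representative one gave 0.58 in the added fit against all other arrays and the others 0.10 and -0.06. ERN1 had a change of 0.65 (limma adjusted p = 0.184034) and lay at 0.66 with ethanol, against 0.46 with E2-BSA and G15, 0.33 with E2-BSA and ICI, 0.32 with estradiol and with BSA, 0.14 with G15, 0.12 with ICI, and 0.07 and 0.04 with E2-BSA 2 and 1. ATF6 had a change of -0.15 ± 0.26 (SE; limma adjusted p = 0.992315).

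HERPUD1, an ER membrane protein that assists the degradation of misfolded proteins, was the ER-side gene that rose. It lay 1.11 log2 units above control with ethanol and between -0.07 (E2-BSA 1) and 0.27 (G15) on the other arrays, and its fitted change was 1.10 ± 0.16 (SE; 2.14-fold, limma adjusted p = 0.0105307). Its second probe set gave -0.35 and did not pass, so the 2 probe sets of HERPUD1 disagree in direction. EDEM1, a lectin of the same degradation route, had a change of 0.14 that did not pass.

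None of the 8 ER chaperone genes passed in limma, and 4 of their 21 probe sets had an unadjusted p under 0.05, against 7.16% of all probe sets. HSPA5 (BiP), the major ER chaperone, lay 0.26 log2 units above control with ethanol, against 0.14 with E2-BSA and G15, 0.13 with ICI, 0.12 with G15, 0.07 with estradiol, 0.04 and 0.02 with E2-BSA 1 and 2, -0.04 with BSA and -0.05 with E2-BSA and ICI. The ethanol array was the highest, by 0.12 over the next. Its fitted change was 0.27 ± 0.16 (SE; limma adjusted p = 0.824107). The highest chaperone change was 0.73 for DNAJB9, a J-domain partner of HSPA5 (limma adjusted p = 0.123182), followed by 0.45 for DNAJC3, which inhibits the eIF2 kinases, and 0.20 for calreticulin (CALR). PDIA6, SDF2L1 and PDIA4 lay at 0.06, -0.05 and -0.14, and HSP90B1 (GRP94) had the lowest change, -0.34.

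The branches also differed when no model was fitted. The ethanol array was the highest of the 8 arrays of the larger set in 29 of 40 ATF4 branch probe sets (72.5%) and in 8 of 21 chaperone probe sets (38.1%), against 14.2% of all probe sets. It was the highest by a log2 gap of at least 1 in 11 of the 40 and in 0 of the 33 ER-side probe sets, against 0.0842% of all. It was the lowest in 4 of the 73 probe sets, against 15.6% of all. Each of the other 7 arrays was highest in 2.74% to 11% of the 73 probe sets, against 9.73% to 14.7% of all probe sets, and since 1 array is highest in each probe set these shares fall as that of ethanol (53.4%) grows. In all 10 probe sets of feedback genes and stress effectors the ethanol array was the highest.

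**Figure D3:**
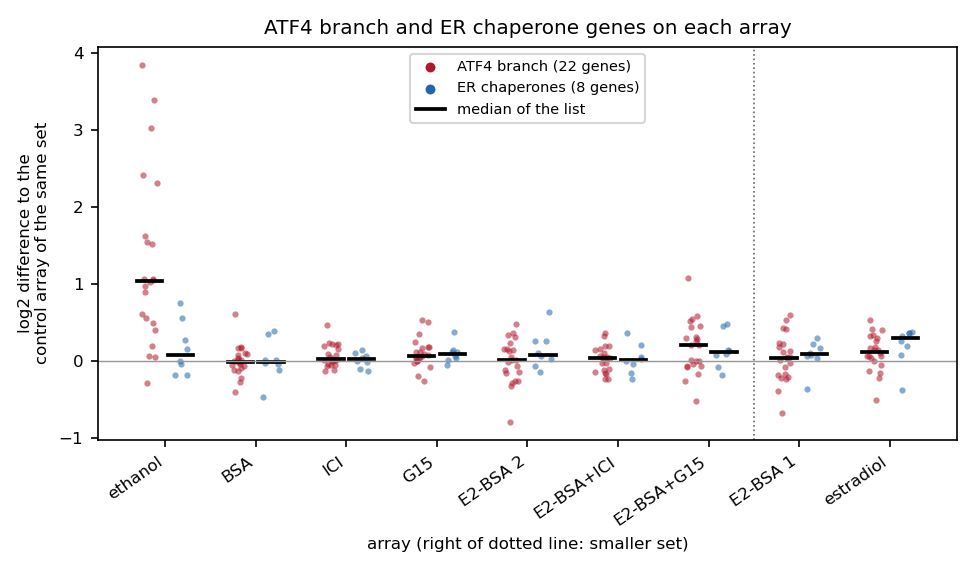
Log2 difference from the control array of the same set for each ATF4 branch gene and each ER chaperone gene (points) on the 9 arrays outside control, with the list's median as a line. The ATF4 branch median is 1.04 on the ethanol array and at most 0.21 on the others, and the chaperone median lies between -0.01 and 0.29.

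Pathway genes outside the 35 were read from further lists for the same comparison with ethanol. These lists hold 186 probe sets, of which 5 were called. Over all probe sets 0.287% were called in either direction, and 7.16% had an unadjusted p under 0.05 (limma). Of 20 other ATF4 targets 3 rose: GDF15, a stress cytokine, by 3.30 ± 0.21 (SE; limma adjusted p = 9.09141e-06), VEGFA, the angiogenic growth factor, by 1.83 (limma adjusted p = 0.000126568), and SLC38A2, a neutral amino acid carrier, by 0.86 and 0.87 on 2 probe sets (limma adjusted p = 0.0482 and 0.0446). All 20 had a change above 0, with a median of 0.56. In the larger set the ethanol array was highest in 35 of their 50 probe sets (70%), against 15.3% of all probe sets with 1 gene. Of 11 aminoacyl-tRNA synthetases SARS1 rose, by 0.92 (limma adjusted p = 0.0333271), and the list's median was 0.16. The 13 genes of eIF2, its kinases and eIF2B had 0 calls (1 probe set at an unadjusted p under 0.05) and a median of 0.03. There were 0 calls among 18 other ER folding genes (3 probe sets at an unadjusted p under 0.05, median 0.13), 10 other genes of ER-associated degradation (0 probe sets, median 0.04) and 7 other genes of the sensors (0 probe sets, median 0.04).

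Promoter sequences were compared because ATF4 and the ER sensors are known to act through different DNA elements. The RefSeq promoter table (GRCh38.p14; 250 bases before to 50 after each gene's start) holds 32 of the 35 genes, and INHBE, NUPR1 and SLC7A11 are not among them. Both strands were searched for exact matches, and none of the 13 matches overlapped another. The core of the CARE element bound by ATF4 with C/EBP proteins, TGATGNAA, was in 5 of 19 ATF4 branch promoters (ASNS, ATF3, CHAC1, SLC3A2 and SLC7A1), in 1 of 13 ER-side promoters (HERPUD1) and in 3.67% of 27305 promoters. The ER stress element ERSE, read as CCAAT and CCACG with 9 bases between them, was in 4 of 13 ER-side promoters (CALR, HSP90B1, HSPA5 and XBP1), in 0 of 19 ATF4 branch promoters and in 0.0806% of all. ERSE-II (ATTGG and CCACG with 1 base between them) was in HERPUD1 and SDF2L1 and in 0.0549% of all, and the element UPRE (TGACGTGG) was in 0 members and 0.795% of all. These elements were defined on such genes, so their presence here is background and not a result.

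These promoters, written 5' to 3' on the gene's strand with the matches in capitals, are a pair with CARE from genes that rose with ethanol (ASNS at chr7:97872359-97872658, minus strand; CHAC1 at chr15:40953221-40953520, plus strand), the promoter of HERPUD1 (chr16:56931892-56932191, plus strand) with CARE followed by ERSE-II, and a pair with ERSE from genes that did not pass (HSPA5 at chr9:125241294-125241593, minus strand; XBP1 at chr22:28800520-28800819, minus strand).
ASNS: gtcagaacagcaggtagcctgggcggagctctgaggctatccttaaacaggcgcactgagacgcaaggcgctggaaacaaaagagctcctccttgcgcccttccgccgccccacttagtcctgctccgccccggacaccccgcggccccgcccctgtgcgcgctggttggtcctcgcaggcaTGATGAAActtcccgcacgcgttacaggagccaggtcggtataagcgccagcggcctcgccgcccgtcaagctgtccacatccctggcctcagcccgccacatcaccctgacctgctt
CHAC1: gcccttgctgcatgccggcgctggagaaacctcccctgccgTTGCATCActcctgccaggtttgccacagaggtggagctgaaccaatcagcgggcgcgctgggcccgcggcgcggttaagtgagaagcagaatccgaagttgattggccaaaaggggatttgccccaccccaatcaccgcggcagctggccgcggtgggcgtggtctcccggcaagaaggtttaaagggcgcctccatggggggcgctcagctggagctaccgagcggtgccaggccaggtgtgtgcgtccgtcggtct
HERPUD1: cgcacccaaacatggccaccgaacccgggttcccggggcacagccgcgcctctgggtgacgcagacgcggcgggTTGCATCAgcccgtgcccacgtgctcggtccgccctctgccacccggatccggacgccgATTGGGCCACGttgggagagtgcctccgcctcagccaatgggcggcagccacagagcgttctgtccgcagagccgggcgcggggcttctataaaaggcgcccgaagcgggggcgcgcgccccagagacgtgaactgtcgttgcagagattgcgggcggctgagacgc
HSPA5: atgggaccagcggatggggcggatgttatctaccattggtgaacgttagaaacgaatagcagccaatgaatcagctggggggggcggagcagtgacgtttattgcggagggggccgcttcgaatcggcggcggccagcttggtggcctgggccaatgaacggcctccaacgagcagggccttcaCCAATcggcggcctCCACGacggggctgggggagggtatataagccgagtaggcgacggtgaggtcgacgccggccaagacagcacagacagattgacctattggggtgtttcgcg
XBP1: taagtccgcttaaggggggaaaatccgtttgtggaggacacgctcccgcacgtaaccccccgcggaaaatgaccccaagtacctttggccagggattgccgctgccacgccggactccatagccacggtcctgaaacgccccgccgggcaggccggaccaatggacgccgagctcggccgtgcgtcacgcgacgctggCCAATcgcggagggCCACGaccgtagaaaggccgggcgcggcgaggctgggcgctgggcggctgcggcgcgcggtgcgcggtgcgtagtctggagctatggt

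The CARE match starts at base -68 from the gene start in ASNS, and on the opposite strand at -209 in CHAC1 and -176 in HERPUD1. HERPUD1 is the single member with matches to both CARE and an ER stress element. Of the 6 genes with a CARE match 5 rose with ethanol, and their median change was 1.07 (range 0.85 to 3.74), where the lowest value is that of SLC7A1, which did not pass against control but did in the added fit against all other arrays (0.79, limma adjusted p = 0.0239968). Of the 26 genes without one 7 rose, among them DDIT3 and SESN2, with a median of 0.36. Of the 5 genes with ERSE or ERSE-II and no CARE match 0 rose, with a median of 0.06. Of the 6 genes with a CARE match 5 lie in the ATF4 branch. The 5 genes with ERSE or ERSE-II and no CARE match all lie on the ER side. These splits therefore largely follow the branches, and whether a match goes with the change within a branch was not tested. A match describes letters in this window and does not show binding.

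Values that could move with the ethanol array were read beside these results. The probe sets for the 5' and 3' ends of ACTB differed by 0.00037 on the ethanol array and by -0.371 to -0.0218 on the other 7 arrays of the larger set, so that array lay just outside the others. For GAPDH the difference was -0.101 (others -0.277 to -0.0140), the 18S rRNA probe set lay at -0.242 (others -0.381 to 0.152) and the SD over all probe sets was 0.193 (others 0.161 to 0.194), all within the range of the others. The 3 arrays of the smaller set lay apart, with ACTB differences of 0.65 to 0.786 and GAPDH differences of 0.38 to 0.546. Their 18S values were 1.43 to 1.595 and their SDs 0.405 to 0.42. Those arrays enter the fits of control, E2-BSA and estradiol. The part of these measures in the results was not tested. Markers of fibroblasts, endothelial, immune and basal cells (9 of 10 on the array) had 0 calls with ethanol, with changes between -0.44 and 0.13 and 1 of 9 above 0. Luminal markers (10 genes) had changes between -0.35 and 0.27 and 0 calls. The ethanol array was the lowest of the 8 in 12 of 28 luminal probe sets, against 15.6% of all probe sets, and the highest in 1 (3.57%, against 14.2%), so luminal markers were more often lowest on the array on which the ATF4 branch was high. Their part in the result was not tested either.

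Estradiol and ethanol, named as its vehicle, were set against each other in a comparison added after the data were seen. A share of ethanol is recorded for the ethanol array alone, so whether the estradiol culture also received it is not settled here. The 2 arrays lie in different sets, so the comparison rests on the set term of the fit. With estradiol 12 of the 73 probe sets were lower than with ethanol and 0 were higher, against 0.163% of all probe sets called in either direction and 0.103% called lower (7.47% had an unadjusted p under 0.05). They belong to 9 genes, all in the ATF4 branch: ATF3, CHAC1, INHBE, DDIT3, PPP1R15A, DDIT4, SLC7A11, SESN2 and CEBPB. The difference was -3.63 for CHAC1 and -3.13 for ATF3 (limma adjusted p = 3.47332e-05 for both). The median difference was -0.82 over the ATF4 branch and 0.09 over the chaperones. Against its own set's control the estradiol array lay at -0.01 for CHAC1, 0.29 for ATF3, 0.18 for DDIT3 and 0.06 for INHBE. This comparison uses the same ethanol array as the one with control.

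**Figure D4:**
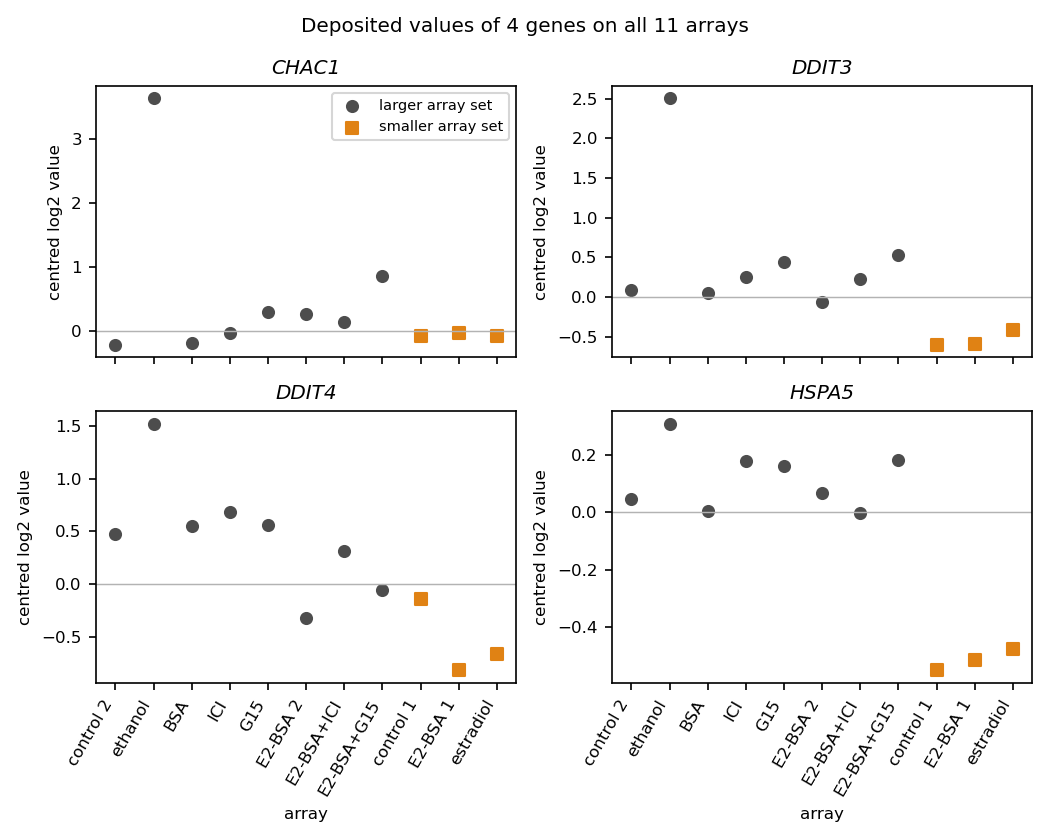
Centred log2 values of CHAC1, DDIT3, DDIT4 and HSPA5 on each of the 11 arrays, with the smaller and larger array sets marked. On the ethanol array CHAC1 (3.63) and DDIT3 (2.50) lie far above the other arrays of the larger set (at most 0.85 and 0.53). DDIT4 is highest on the ethanol array (1.52) and low on the arrays with estradiol or E2-BSA, and HSPA5 differs mainly between the sets.

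DDIT4 was the member that fell with E2-BSA. DDIT4 (REDD1) inhibits mTORC1 and is induced by ATF4, by hypoxia and by glucocorticoids. Against the control of their own set the E2-BSA arrays lay at -0.67 and -0.79, estradiol at -0.52, E2-BSA with G15 at -0.53 and E2-BSA with ICI at -0.16. The arrays without an estrogen lay at 0.08 (BSA), 0.09 (G15), 0.22 (ICI) and 1.05 (ethanol). Every array with estradiol or E2-BSA was thus below its control and every other array was above it. With E2-BSA and ICI the fitted change (-0.13 ± 0.16 SE) was smaller than its error. DDIT4 was picked by its call on some of these arrays, and arrays of 1 set share their control. The share of all probe sets that split in this way was not counted, so the split is given as values only. The fitted change with E2-BSA was -0.73 ± 0.12 (SE; limma adjusted p = 0.0159341), and DDIT4 was the 1 of 73 probe sets called, against 0.657% of all probe sets in either direction and 0.276% lower. The call was lost without the array set as a term and after quantile normalization.

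With estradiol DDIT4 had a change of -0.55 (limma adjusted p = 0.336807) and with E2-BSA and G15 one of -0.50 (limma adjusted p = 0.473477), neither of which passed. Against BSA, the carrier, the change with E2-BSA was -0.85 (95% interval -1.19 to -0.50; limma adjusted p = 0.0740063), with 0 member calls and 10 member probe sets at an unadjusted p under 0.05 (6.47% of all probe sets had one, and 0.152% were called). Averaged over the backgrounds of no antagonist, ICI and G15, E2-BSA gave a DDIT4 change of -0.61 ± 0.08 (SE; limma adjusted p = 0.0460102), the 1 member call beside 0.244% of all probe sets (13 members had an unadjusted p under 0.05, as did 8.45% of all). That last call was lost without either control array, either E2-BSA array, the G15 array or the array of both E2-BSA and G15, where the adjusted p reached 0.257794, and under robust eBayes (0.0503432). The E2-BSA response of DDIT4 was 0.36 higher with ICI than without (95% interval -0.09 to 0.81), a difference that did not pass (limma adjusted p = 0.801466). With ethanol DDIT4 rose, by 1.08 ± 0.16 (SE; 2.11-fold, limma adjusted p = 0.0119585).

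In the larger set, the 3 arrays with E2-BSA lay all below the 5 others in 5 of the 73 probe sets and all above them in 1, against 3.63% and 3.16% of all probe sets. For DDIT4 the gap was from 0.31 to 0.47 in centred log2 units. The other 5 probe sets belong to CALR, SLC7A11, PDIA4, CTH and ATF5, and the gap between the nearest arrays of both kinds was below that of DDIT4 in each.

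The rest of the module gave 0 calls with E2-BSA and 11 of 73 probe sets at an unadjusted p under 0.05, DDIT4 included, against 9.68% of all probe sets. The median change was -0.01 over the ATF4 branch, 0.06 over the chaperones and 0.01 over all genes. The highest changes were those of SLC7A5 and DNAJC3, both 0.43, and the lowest after DDIT4 was -0.28 for PPP1R15A, and none of these passed (limma adjusted p = 0.18944, 0.247831 and 0.467633). SLC7A5 lay at 0.53 and 0.34 on the E2-BSA arrays, 0.53 with estradiol, 0.54 with E2-BSA and G15, 0.48 with ethanol, 0.32 with E2-BSA and ICI, 0.18 with G15, 0.03 with ICI and -0.07 with BSA. The SLC7A5 value was thus above control on 8 of 9 arrays and below it with BSA. The other 3 DNAJC3 probe sets did not follow, with changes of -0.14, -0.04 and -0.05. The representative one lay at 0.22 and 0.64 on the E2-BSA arrays and between -0.01 (ICI) and 0.55 (ethanol) on the others. XBP1 lay at 0.57 and 0.19 with E2-BSA and at 0.35 with estradiol, against -0.18 to 0.06 on the other arrays (fitted change with E2-BSA 0.38, limma adjusted p = 0.311994), while its second probe set had a change of -0.15. Both E2-BSA arrays had the same sign of difference in 21 of 35 genes (60%), against 54.4% of all genes.

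Among pathway genes outside the 35, STC2, a secreted glycoprotein counted among ATF4 targets and also known as an estrogen-responsive gene, rose with E2-BSA by 1.62 (limma adjusted p = 0.000340499), with estradiol by 1.48 (0.0107925) and with E2-BSA and G15 by 1.31 (0.0280136). STC2 was called without a call of any ATF4 branch gene in the same direction in those comparisons.

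Estradiol against control gave 0 calls among the 73 probe sets in limma and 7 at an unadjusted p under 0.05, against 0.167% of all probe sets called and 9.2% at that unadjusted level. The chaperones had a median of 0.28, with 7 of 8 above 0, the ATF4 branch one of 0.11, and all genes one of 0.01, with 52.2% above 0. The chaperone median against the set's control (0.29) was 0.15 when a gene's probe sets were averaged and 0.13 after quantile normalization, and that of the ATF4 branch (0.12) was 0.059 and 0.047. Among representative probe sets the highest changes were 0.64 for ATF6 and 0.55 for SLC7A11, and the lowest beside DDIT4 was -0.26 for PPP1R15A. The other SLC7A11 probe sets gave 0.50 and 0.02. A further probe set of SLC7A1 gave -0.38, where its representative one gave 0.08. ATF6 lay at 0.92 with estradiol and 0.76 with E2-BSA 1, both of the smaller set, but at -0.66 (BSA) to -0.24 (E2-BSA with G15) on all 7 treated arrays of the larger set, so this probe set had 1 sign within each array set. The other 3 ATF6 probe sets gave -0.01, 0.02 and 0.07 with estradiol and did not show that split.

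The carrier and the antagonists gave no call in the module. With BSA 0 of 73 probe sets were called and 8 had an unadjusted p under 0.05 (0.0494% of all called, 4.95% at that unadjusted level). Its extremes were 0.46 for SLC7A11, 0.36 for DNAJB9, -0.42 for ATF5 and -0.63 for HSP90B1. The other probe sets of SLC7A11 (-0.11 and -0.03) and of ATF5 (-0.01, 0.27 and 0.13) did not follow. DNAJB9 lay at 0.38 with BSA, 0.75 with ethanol, 0.45 with E2-BSA and G15, and 0.03 to 0.26 elsewhere, and ATF5 lay at -0.40 with BSA, -0.29 with ethanol, -0.26 with G15, and -0.08 to 0.14 elsewhere. HSP90B1 lay at -0.48 with BSA, at -0.38 with estradiol, at -0.37 and 0.25 with E2-BSA 1 and 2, at -0.23 with E2-BSA and ICI, -0.19 with ethanol, -0.10 with ICI, 0.08 with E2-BSA and G15 and 0.06 with G15. The 2 E2-BSA arrays thus disagree for HSP90B1.

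With ICI 0 probe sets were called (0 on the whole array) and 2 members had an unadjusted p under 0.05, as did 5.95% of all probe sets. Among representative probe sets the highest changes were 0.31 for SLC7A11 and 0.27 for SESN2, and the lowest were -0.26 for HSP90B1 and -0.14 for ATF6. Further probe sets of ATF5 and HERPUD1 lay beyond these, at 0.38 and -0.37. The other SLC7A11 probe sets gave -0.14 and -0.04. Over both backgrounds ICI gave 0 calls and 1 member probe set at an unadjusted p under 0.05 (4.36% of all), that of DDIT4 (change 0.42, limma adjusted p = 0.99986), followed by DDIT3 at 0.22. With E2-BSA and ICI 0 were called (0 on the whole array) and 2 had an unadjusted p under 0.05 (4.88% of all), with SLC7A5 at 0.37, ERN1 at 0.32, PSAT1 at -0.23 and HSP90B1 at -0.39. The second PSAT1 probe set gave 0.21. The representative one lay at 0.55 with ethanol and between -0.26 (E2-BSA 2) and 0.03 (BSA) on all other arrays.

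With G15 0 probe sets were called (0 on the whole array) and 5 members had an unadjusted p under 0.05, as did 4.84% of all. Among representative probe sets CHAC1 and DDIT3 were highest, at 0.40 and 0.39, and ATF6 and ATF5 lowest, at -0.33 and -0.29. Further probe sets lay lower, at -0.43 and -0.40 for DNAJC3 and -0.41 for HERPUD1. The representative probe sets of these genes gave 0.27 and 0.26. The other ATF5 probe sets gave 0.09, 0.21 and 0.05. Over both backgrounds G15 gave 0 calls and 7 at an unadjusted p under 0.05 (3.72% of all), with CHAC1 at 0.55 (95% interval 0.22 to 0.87), DDIT3 at 0.47 (0.24 to 0.70) and INHBE at 0.47 (0.03 to 0.90), and with ATF6 at -0.25 and XBP1 at -0.15 (limma adjusted p = 0.999941 for all 5). With E2-BSA and G15 together 0 of 73 were called, 11 had an unadjusted p under 0.05 (7.27% of all), and 0.126% of all probe sets were called. CHAC1 had a change of 0.96 ± 0.18 (SE; limma adjusted p = 0.0784637) and INHBE one of 0.76 (limma adjusted p = 0.352378), which did not pass, and VLDLR was lowest after DDIT4, at -0.21. That rank of VLDLR is among representative probe sets, and further ones of HERPUD1 and SLC7A11 gave -0.37 and -0.30. VLDLR lay at -0.26 with E2-BSA and G15, -0.16 with E2-BSA 2 and between -0.00 and 0.19 on the other arrays. The E2-BSA response with an antagonist minus that without gave 0 member calls for ICI (2 at an unadjusted p under 0.05 against 7.58% of all, with 0.011% of all called) and for G15 (5 at that level against 8.01% of all, with 0 of all called).

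Across the 9 arrays outside control, the median difference of the ATF4 branch and of the chaperones from their set's control was 1.04 and 0.07 with ethanol, 0.21 and 0.11 with E2-BSA and G15, 0.12 and 0.29 with estradiol, and 0.06 and 0.09 with G15. It was 0.04 and 0.08 with E2-BSA 1, 0.03 and 0.01 with E2-BSA and ICI, 0.02 for both with ICI, 0.01 and 0.08 with E2-BSA 2, and -0.01 for both with BSA. Arrays of 1 set share their control array, so these medians are not independent of one another. With ethanol the ATF4 branch median lay far above that of the chaperones. With estradiol and both E2-BSA arrays it lay below, and for G15 the order turned when a gene's probe sets were averaged (0.056 and 0.044).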

How the data were processed

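Total RNA of T47D cells was hybridised to 11 arrays, per the labels' protocols. The authors deposited 1 log2 value per probe set and array. The log base was read from the size of the values, and the method of summarisation is not given in the sources used here. Values as deposited were already normalised across arrays (each array's median lies within 0.0105 of 0) and centred per probe set, so levels and signal over background are lost, low-signal probe sets could not be filtered out, and the number of arrays limits the precision. Of 54675 probe sets 62 controls were left out. By the platform annotation 41091 probe sets had 1 gene, 1801 several and 11721 none, and 41037 symbols were updated through RefSeq.

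Groups came from the labels. Tests used limma 3.58.1 (lmFit, eBayes) in R 4.3.3, with group means and the array set as a block over 11 arrays (1 residual degree of freedom), or with terms for E2-BSA, ICI, G15 and the set over 8 arrays (3 residual, 4.98 prior degrees of freedom). In all 15 comparisons were tested, one of them, estradiol against ethanol, added after the data were seen. The fits were tested on simulated data. The sets follow the sign of the first principal component. For control and E2-BSA they coincide with the labels' replicate numbers, and no label says that a number marks a shared culture or day.

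The members and lists were chosen with earlier results of these data known, so no list test, p over the list or score p is given. Values per array are given for ATF4, ATF3, DDIT3, XBP1, ERN1, ATF6 and HSPA5, for every called member, and for the 2 highest and 2 lowest members per comparison with control or per agent. Highest and lowest members were ranked on representative probe sets, so a further probe set of a gene can lie beyond them. STC2, GDF15, VEGFA, SLC38A2 and SARS1 are named as called pathway genes. Of 83 pathway genes 79 were measured. Alternatives were no block, quantile normalization, robust eBayes, probe sets with 1 gene, the mean over a gene's probe sets, all ER-side members, and leaving out arrays. The fit of ethanol against all other arrays, the ranks in the larger set and the removal of single-array groups were chosen after seeing the data.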

Additional observations from a re-analysis of the deposited data

How the results depend on the processing

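The replicate block, which here is the array set, was needed for every call in the module. Without the replicate block 0 member probe sets were called with E2-BSA against control, ethanol against control, estradiol against ethanol and E2-BSA over 3 backgrounds. After quantile normalization these counts were 0, 2, 0 and 0. The count for ethanol stayed at 19 with robust eBayes and with only the probe sets of 1 gene, and was 21 against all other arrays. The count for E2-BSA over 3 backgrounds was 0 with robust eBayes and 0 to 1 when arrays were left out one at a time. The count was 0 without either control, either E2-BSA array, G15, or E2-BSA with G15. With the block over 9 groups, leaving out a control or E2-BSA array leaves no residual degree of freedom, so those runs give values and no counts. An array that is alone in its group is fitted exactly there, so leaving it out does not change the comparisons of the other groups. The change of XBP1 with ethanol reversed to -0.11 without the replicate block, to -0.017 after quantile normalization and to -0.080 as the mean over its probe sets, and that of ATF6 to 0.013 against all other arrays. The cause of these changes was not tested. Of 293 values of named members under alternatives, 205 kept their direction and side of the threshold, 62 lost the call, 1 gained it, 21 without a call moved and 4 reversed.

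Medians per array moved under 3 alternatives. As the mean over probe sets, the ATF4 branch median was 0.94 with ethanol, 0.059 with estradiol and 0.15 with E2-BSA and G15, and the chaperone median was 0.038 with ethanol, 0.15 with estradiol, 0.077 and 0.053 with E2-BSA 1 and 2, 0.038 with ICI, 0.044 with G15, -0.033 with E2-BSA and ICI, 0.053 with E2-BSA and G15 and -0.032 with BSA. After quantile normalization the ATF4 branch median was 0.047 with estradiol, 0.0089 with E2-BSA 1 and 0.23 with E2-BSA and G15. The chaperone median was then 0.095 with ethanol, 0.13 with estradiol, 0.031 and 0.11 with E2-BSA 1 and 2, 0.086 with ICI, 0.11 with G15, 0.012 with E2-BSA and ICI, 0.12 with E2-BSA and G15 and -0.023 with BSA. Over all ER-side members in place of chaperones the median was 0.11 with ethanol, 0.32 with estradiol, 0.075 and 0.057 with E2-BSA 1 and 2, 0.064 with G15 and 0.018 with E2-BSA and ICI.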

Other observations

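Other genes called on the ethanol array were read after their values were seen, and are given as values. MAFF, a small MAF transcription factor, was higher than control by 4.73 (limma adjusted p = 5.49918e-07). Also higher were TNFAIP3, a brake on NF-kB, by 3.39, the chemokines CXCL2 and CCL20 by 3.21 and 2.97, the interferon regulatory factor IRF1 by 2.75, the cytokine TNF by 2.41, the adhesion molecule ICAM1 by 2.11 and NFKBIA, an NF-kB inhibitor, by 1.21 (limma adjusted p from 1.00947e-06 to 0.0169168). The immediate early genes JUN and EGR1 were higher by 2.27 and 1.70, the phosphatase gene DUSP1 by 2.33, and PMAIP1 (NOXA), a promoter of apoptosis, by 2.89. MAFF lay 4.89 above control 2 on the ethanol array and up to 2.23 above it on another array of the larger set. For EGR1 these values were 2.03 and 0.76. For the other genes named in this paragraph the other arrays of that set reached at most 0.51 (PMAIP1).

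Among genes called lower on the same array, the helicase gene PIF1 had a change of -1.60, TOP2A, a topoisomerase, one of -1.38, ASPM, a spindle pole protein, one of -1.34, the mitotic kinase PLK1 one of -1.19, and the proliferation marker MKI67 one of -0.91 (limma adjusted p from 0.000528054 to 0.0333271).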
